A study of Mus musculus with 27 samples.

Results

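The sodium-calcium exchanger genes Slc8a1, Slc24a1 and Slc24a4 were described in mouse olfactory mucosa, the lining of the nose in which the neurons that sense odors sit. They are 3 of the 16637 genes named on the array. All probes annotated to them were taken, 7 of the 29922 probes in all, of which 4 belong to Slc8a1, 1 to Slc24a1 and 2 to Slc24a4. The genes were selected on measured values of the same samples. Slc8a1 and Slc24a1 had stood among the largest decreases of occluded against open mucosa, and Slc24a4 among the transduction genes with the smallest p-values in that comparison. Values of occluded against open mucosa are therefore given as a description, with no test.

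The animals were female mice of the FVB strain, 25 days old, and no genetic change is named for any group. In the occluded group 1 nostril had been closed by cautery, and the mucosa behind it was taken. The open group is the mucosa behind the nostril that was not closed, from the same individuals per the design text. The normal group comes from other mice that received a sham cautery. Each group has 3 biological replicates, and each replicate was read on 3 arrays, 27 arrays in all. The labels do not say whether a replicate pools tissue of several mice, so the p-values measure the spread between these samples.

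Calcium enters the cilia of an olfactory neuron through the cyclic nucleotide-gated channel when an odor binds, and there opens a calcium-activated chloride channel. The response ends when calcium is pumped or exchanged out of the cilium. Exchangers of the Slc8 family trade external sodium for internal calcium, and those of the Slc24 family also carry potassium out of the cell. Slc8a1 encodes NCX1, best known from heart muscle and also found in many neurons and in smooth muscle. Slc24a1 encodes NCKX1, best known from the outer segments of rod photoreceptors. Slc24a4 encodes NCKX4, which in mouse olfactory neurons is needed for the fast end of the odor response and for adaptation.

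The sequences before the start sites are shown because Slc8a1 and Slc24a1 had the same sign between the sides and Slc24a4 the opposite one. They are the 250 bases before the start site of each gene in RefSeq on the GRCm38.p6 build, at chr17:81738388-81738637 on the minus strand for Slc8a1, chr9:64951621-64951870 on the minus strand for Slc24a1 and chr12:102128477-102128726 on the plus strand for Slc24a4. Capitals mark CCCNNGGG, the core of the site bound by the Ebf factors of olfactory neurons. Slc8a1 is known to use several start sites in different tissues, and the table holds 1 of them.
Slc8a1: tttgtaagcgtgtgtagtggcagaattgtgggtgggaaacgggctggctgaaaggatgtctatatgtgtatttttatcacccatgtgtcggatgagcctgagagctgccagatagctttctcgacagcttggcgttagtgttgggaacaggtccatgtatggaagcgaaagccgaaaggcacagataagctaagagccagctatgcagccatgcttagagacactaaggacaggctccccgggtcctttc
Slc24a1: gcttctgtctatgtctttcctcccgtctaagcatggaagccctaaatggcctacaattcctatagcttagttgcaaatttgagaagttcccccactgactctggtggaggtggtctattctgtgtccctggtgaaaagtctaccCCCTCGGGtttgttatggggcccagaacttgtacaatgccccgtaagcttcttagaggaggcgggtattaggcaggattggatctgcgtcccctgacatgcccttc
Slc24a4: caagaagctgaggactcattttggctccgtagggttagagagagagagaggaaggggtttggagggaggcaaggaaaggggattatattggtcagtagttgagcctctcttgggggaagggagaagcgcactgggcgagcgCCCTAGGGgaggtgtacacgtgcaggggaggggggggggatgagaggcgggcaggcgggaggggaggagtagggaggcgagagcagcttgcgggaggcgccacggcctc

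Both strands of these windows were searched for 4 motifs, and the share of all 32851 RefSeq windows of the same length that hold each motif was counted. CCCNNGGG is found in 11.82% of all windows. It occurs 1 time in Slc24a1, starting 106 bases before the start site, and 1 time in Slc24a4, starting 109 bases before it. The window of Slc8a1 does not hold it. The whole cAMP response element TGACGTCA (1.55% of all windows), its shorter form TGACG (17.77%, which also counts the whole element) and the homeodomain letters TAATTA (4.84%) are not in any of the 3 windows. The share of G and C was 50.4% in Slc8a1, 50.8% in Slc24a1 and 62.8% in Slc24a4, with a median of 52.4% over all windows.

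Array medians ran from 123 to 274 intensity units. The noise limit, set at 3 times the root mean square of an array's values below 0, lay between 11.6 and 24.1. All 7 exchanger probes were above it on all 27 arrays, and none was saturated on any array. Omp, which marks mature olfactory neurons, reached saturation on 26 of 27 arrays, so the tissue holds a strong signal of these neurons and Omp gives no fold. Values were quantile normalised, and the 3 arrays of a replicate were averaged on the log2 scale. Intensities of different probes cannot be set against each other, so each probe is compared with itself only.

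Slc8a1 was lower in occluded mucosa on 3 of its 4 probes. For its brightest probe, mMC018264, the normalised intensity was 1984, 1889 and 2055 in occluded replicates 1 to 3. It was 6119, 4836 and 4953 in the open replicates and 3954, 6451 and 3167 in the normal replicates. The highest occluded value lay below the lowest open and the lowest normal value, while open and normal replicates overlapped. The occluded side held 32.4%, 39.0% and 41.5% of the open value in pairs 1 to 3. The log2 difference of occluded from open was -1.42 ± 0.21 (SE, n = 3 each), a level 2.67 times lower. Each SE of a difference here is the moderated value of limma from a fit of all 3 groups, so the spread of the normal replicates enters it. With the occluded and open groups fitted alone the SE of this difference was 0.15. Before normalisation the 9 occluded arrays read 1677 to 2766 at this probe, against 4874 to 6114 on the 9 open arrays. The 9 normal arrays read 2682 to 7262, so before normalisation occluded and normal arrays overlapped.

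For 2 dimmer probes of Slc8a1 the difference between the sides was of almost the same size. Probe mMC019281 read 121, 206 and 208 in occluded replicates, against 318, 499 and 628 in open and 437, 575 and 627 in normal replicates. Its log2 difference of occluded from open was -1.42 ± 0.23 (SE, n = 3 each). Probe mMR029153 read 107, 159 and 107 in occluded replicates, against 365, 304 and 336 in open and 262, 309 and 236 in normal replicates. Its log2 difference of occluded from open was -1.45 ± 0.19 (SE, n = 3 each). On both probes each occluded replicate lay below each open and each normal replicate.

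The fourth Slc8a1 probe behaved differently. Probe mMC006246 read 211, 146 and 186 in occluded replicates, against 268, 199 and 157 in open and 277, 192 and 192 in normal replicates. The groups overlapped, and occluded replicate 3 was above its open partner (118% of it), whereas replicates 1 and 2 were at 78.7% and 73.1%. The log2 difference of occluded from open was -0.19 ± 0.21 (SE, n = 3 each). Across the 9 replicates the 3 concordant probes correlated with each other at r = 0.75 to 0.93, while mMC006246 correlated with them at r = 0.01 to 0.36. These correlations are descriptions over 9 samples that share arrays and groups. The position of each probe on the transcript was not analysed here. The mean of all 4 probes differed by -1.12 between occluded and open mucosa.

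**Figure D1:**
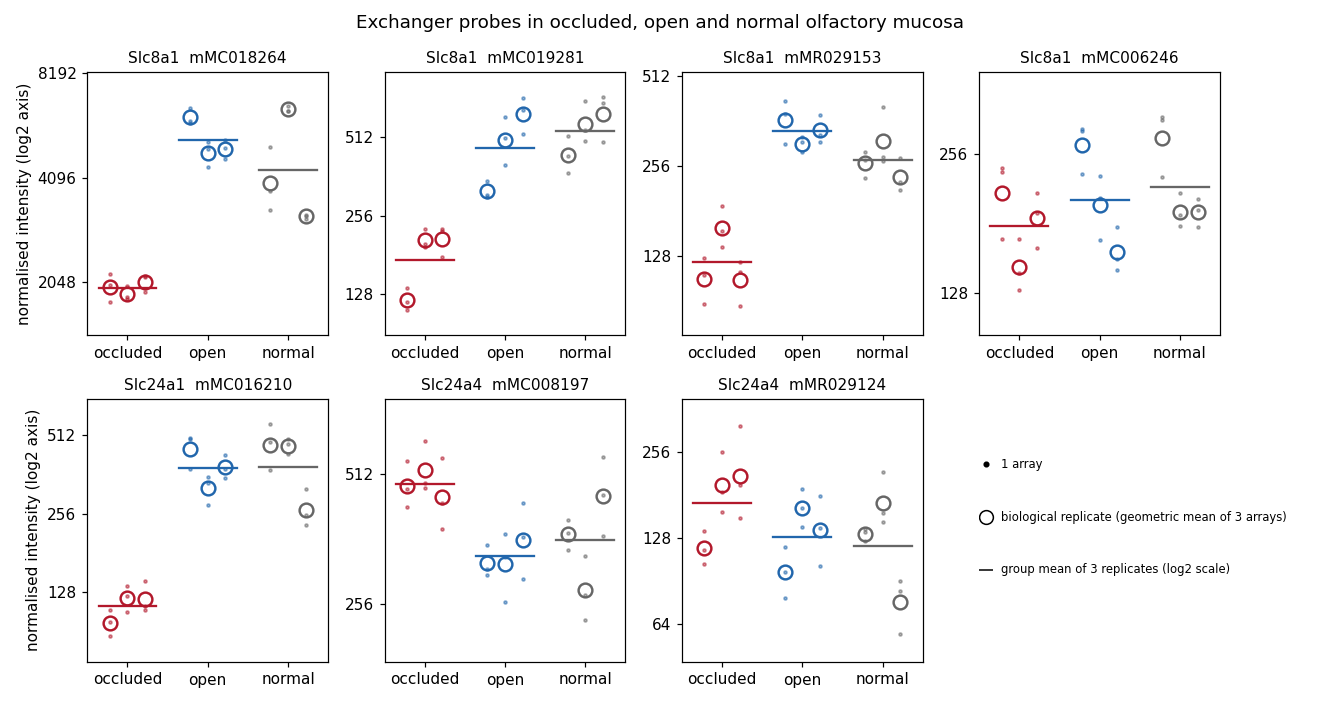
Normalised intensity (log2 axis) of the 7 exchanger probes in occluded, open and normal mucosa; small dots are arrays, circles are biological replicates, and lines are group means of 3 replicates. Occluded replicates lie below all open and normal replicates for 3 of 4 Slc8a1 probes and for Slc24a1, and above the open replicates for Slc24a4 probe mMC008197.

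Slc24a1 had the largest difference of the 7 probes between the sides. Its probe mMC016210 read 98.2, 122 and 121 in occluded replicates 1 to 3. It read 452, 320 and 385 in open replicates and 466, 464 and 264 in normal replicates. All occluded replicates lay below all others, by a wide margin, and open and normal replicates overlapped. The occluded side held 21.7%, 38.2% and 31.4% of the open value in pairs 1 to 3. The log2 difference of occluded from open was -1.75 ± 0.22 (SE, n = 3 each), a level 3.37 times lower. Deposited intensities of single arrays ran from 74.1 to 167 on the occluded side, against 310 to 492 on the open side.

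Slc24a4 had a difference of the opposite sign. Its brighter probe, mMC008197, read 480, 522 and 453 in occluded replicates, against 319, 317 and 361 in open and 371, 276 and 455 in normal replicates. Each occluded replicate was above each open one, at 151%, 165% and 126% of its partner, while occluded and normal replicates overlapped at replicate 3. The log2 difference of occluded from open was 0.55 ± 0.17 (SE, n = 3 each). The dimmer probe, mMR029124, read 118, 196 and 211 in occluded replicates, against 97.0, 163 and 137 in open and 132, 170 and 76.2 in normal replicates. Its groups overlapped, and each occluded replicate was above its open partner, with a log2 difference of 0.39 ± 0.27 (SE, n = 3 each), which was 0.11 without open replicate 1 and 0.71 without occluded replicate 1. The 2 Slc24a4 probes correlated at r = 0.01 over the 9 replicates, whereas both were higher on average in occluded than in open mucosa.

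Counted over the 7 probes, 4 lay at a log2 difference of -1 or lower in occluded against open mucosa, as did 1.2% of all probes. Occluded replicates lay below open replicates without overlap for 4 of 7 probes and above them for 1 of 7. Over all probes these shares were 2.94% and 3.76%. In the fit of all probes with limma, 0.221% of all probes had an adjusted p under 0.05 for occluded against open mucosa. That count of 66 probes was 0 without replicate 1. Since the genes were chosen on this comparison, nothing is read from these counts. The median log2 difference was -1.42 over the 7 probes and 0.0042 over all probes.

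**Figure D2:**
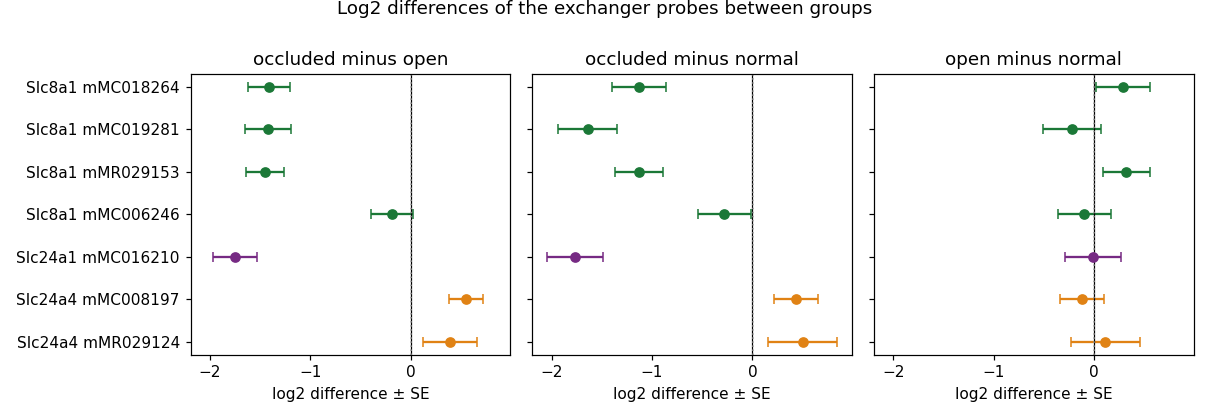
Log2 difference ± SE of each exchanger probe for occluded minus open, occluded minus normal and open minus normal mucosa (n = 3 replicates a group). Slc24a1 and 3 Slc8a1 probes lie between -1.75 and -1.42 against open mucosa and between -1.77 and -1.13 against normal mucosa, and no probe lies beyond 0.32 from 0 between open and normal mucosa.

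The second comparison asked whether the exchanger levels of the occluded side also lay apart from mucosa of mice without occlusion. It shares the occluded arrays with the comparison on which the genes were chosen, so its values are no independent support of that difference. Slc24a1 differed by -1.77 ± 0.28 from normal mucosa (limma adjusted p = 0.20), a level 3.40 times lower. The Slc8a1 probes differed by -1.13 ± 0.27 (mMC018264, limma adjusted p = 0.64), -1.64 ± 0.29 (mMC019281, adjusted p = 0.27) and -1.13 ± 0.24 (mMR029153, adjusted p = 0.47). Probe mMC006246 differed by -0.28 ± 0.27 (limma adjusted p = 1.0). The Slc24a4 probes differed by 0.43 ± 0.22 (mMC008197) and 0.50 ± 0.34 (mMR029124, limma adjusted p = 1.0 for both).

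Thus 0 of 7 probes passed in limma, where 0.00668% of all probes did, and 4 of 7 had an unadjusted p under 0.05, as did 2.88% of all probes. The same 4 probes lay below all normal replicates without overlap, against 3.09% of all probes that did so and 3.57% that lay above. With a prior that is robust and follows the intensity, Slc24a1 passed in limma (adjusted p = 0.035), and its adjusted p ranged from 0.035 to 1.0 over the 19 alternatives. Against normal mucosa the signs of all 7 probes were kept in all alternatives, with mMC006246 at -0.50 to -0.10 and mMC018264 at -1.41 to -0.84.

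The third comparison set the open side against normal mucosa, and shares its samples with the other comparisons. None of the 7 probes passed in limma and none had an unadjusted p under 0.05. Over all probes 0% passed and 1.59% had an unadjusted p under 0.05. The log2 differences of open from normal were 0.29 ± 0.27 for Slc8a1 probe mMC018264, -0.22 ± 0.29 for mMC019281, 0.32 ± 0.24 for mMR029153 and -0.10 ± 0.27 for mMC006246. Slc24a1 differed by -0.01 ± 0.28. Slc24a4 differed by -0.12 ± 0.22 on mMC008197 and 0.11 ± 0.34 on mMR029124. All groups overlapped, while 2.21% of all probes lay lower and 2.06% higher without overlap. A p that misses the threshold does not show equal levels.

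For Slc8a1 probe mMC018264 the mean log2 level was 10.95 ± 0.06 in occluded, 12.36 ± 0.19 in open and 12.08 ± 0.53 in normal mucosa (SD, n = 3 each). For Slc24a1 it was 6.82 ± 0.18 in occluded, 8.58 ± 0.25 in open and 8.59 ± 0.47 in normal mucosa (SD, n = 3 each). For Slc24a4 probe mMC008197 it was 8.92 ± 0.10 in occluded, 8.37 ± 0.11 in open and 8.49 ± 0.36 in normal mucosa (SD, n = 3 each). On each of these probes the normal mice spread most. Normal replicate 3 was the lowest normal sample of both Slc8a1 mMC018264 and Slc24a1, and the highest of Slc24a4 mMC008197. The spread between the 3 arrays of a replicate, on average 0.10 to 0.12 on the log2 scale for Slc8a1 mMC018264 and 0.18 to 0.21 for Slc24a1, was smaller than the differences between sides.

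**Figure D3:**
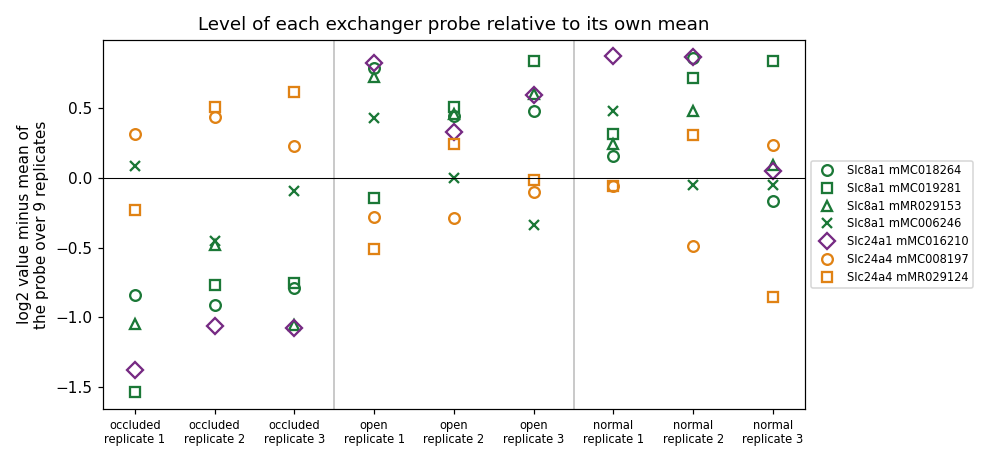
Log2 value of each exchanger probe minus its own mean over the 9 biological replicates, by group and replicate. Slc24a1 and 3 Slc8a1 probes are below their means in all 3 occluded replicates, and Slc24a4 probe mMC008197 is above its mean there. Slc8a1 probe mMC006246 lies between -0.45 and 0.48, and its groups overlap.

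Slc8a1 and Slc24a1 had like profiles over the samples. Across the 9 replicates Slc24a1 correlated with the Slc8a1 probes at r = 0.94 (mMC018264), 0.83 (mMC019281), 0.94 (mMR029153) and 0.44 (mMC006246). Slc24a4 probe mMC008197 correlated with Slc24a1 at r = -0.85 and with Slc8a1 mMC018264 at r = -0.95. The group difference itself makes up much of these values, and the points share arrays and normalisation, so they are given as a description.

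Among 18431 probes of other named genes that were above noise on at least 14 of 27 arrays, those with the profile most like each exchanger over the 9 replicates were listed. For Slc24a1 these were Trim45 (r = 0.99), Numa1, a mitotic spindle protein (r = 0.96), and Pcp4l1, related to Pcp4, which binds calmodulin (r = 0.96). Mean log2 levels of Trim45 were 10.23 in occluded, 11.11 in open and 11.18 in normal mucosa. For Slc8a1 mMC018264 they were Epha7, an ephrin receptor of axon guidance (r = 0.95), the extracellular protease Adamts15 (r = 0.94) and the zinc finger factor Zic4 (r = 0.94). The Epha7 probe was below noise on 4 of 9 occluded arrays and 8 of 27 in all, so its profile is uncertain. For Slc24a4 mMC008197 they were the cation channel Trpm5 (r = 0.96), the sialyltransferase St3gal6 (r = 0.94) and Mfsd1 (r = 0.94). The Trpm5 probe was below noise on 5 of 27 arrays, 0 of them occluded, so its profile is uncertain too. Its mean log2 levels were 4.71 in occluded, 4.16 in open and 4.42 in normal mucosa.

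For the other exchangers of both families, no difference passed the test. Of 6 listed genes 5 were measured, and none passed in limma in any of the 3 comparisons. Over all probes 0.221% passed in occluded against open mucosa, 0.00668% in occluded against normal mucosa and 0% in open against normal mucosa. With shares this small, a short list without a call says little about its genes. Slc8a2, which encodes NCX2 of brain neurons, differed by 0.46 ± 0.32 in occluded against open mucosa (limma adjusted p = 0.96). Slc8b1, the mitochondrial sodium-calcium exchanger, differed by 0.05 ± 0.20 (adjusted p = 1.0). Slc24a2, the exchanger NCKX2 of cones and neurons, differed by -0.68 ± 0.30 (limma adjusted p = 0.82), and its 3 further probes by -1.54, -0.74 and 0.31. Of these, the first 2 were below noise on 22 and 23 of 27 arrays. Slc24a3 differed by 0.31 ± 0.27 (limma adjusted p = 0.99), and Slc24a5, the exchanger of pigment granules, by -0.43 ± 0.33 (adjusted p = 0.98). Against normal mucosa the 5 occluded values ran from -0.88 for Slc24a5 to 0.57 for Slc24a3.

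Calcium pumps and the sodium pump, which sets the sodium gradient that the exchangers use, were read on 8 and 7 measured genes. None of them passed in limma in any comparison, where at most 0.221% of all probes did. The median log2 difference of occluded from open was -0.12 for calcium pumps and -0.03 for sodium pump genes. Atp2a1, the calcium pump of the muscle sarcoplasmic reticulum, differed by -1.27 ± 0.42 (limma adjusted p = 0.57) and was below noise on 8 of 27 arrays. Atp2c2, a pump of the secretory pathway, differed by 0.34 ± 0.36 (adjusted p = 1.0). Atp1b3 and Fxyd2, subunits of the sodium pump, differed by -0.42 ± 0.30 (limma adjusted p = 0.97) and 0.23 ± 0.21 (adjusted p = 0.99). Against normal mucosa, Atp2a1 differed by -1.09 ± 0.54, Atp2c2 by 0.79 ± 0.46, Atp1b3 by -0.34 ± 0.39 and Fxyd1 by -0.12 ± 0.16, with a limma adjusted p of 1.0 each.

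Genes that admit calcium or act around it in olfactory neurons also gave no call, where at most 0.221% of all probes gave one in a comparison. Of 9 measured genes of the calcium and chloride currents, 4 lay above 0 and 5 below in occluded against open mucosa, with a median of -0.02. Cnga2, a subunit of the cyclic nucleotide-gated channel, differed by 0.53 ± 0.17 (limma adjusted p = 0.55) and was saturated on 3 of 27 arrays. Vsnl1, a neuronal calcium sensor, differed by -0.37 ± 0.16 (adjusted p = 0.80). Against normal mucosa Cngb1, a further channel subunit, differed by 0.49 ± 0.23, and Ano2, the calcium-activated chloride channel, by 0.91 ± 0.52 (limma adjusted p = 1.0 each).

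Of 10 measured genes of the cAMP cascade, 8 lay above 0 in occluded against open mucosa, with a median of 0.29. Ric8b, which helps fold the G protein of these neurons, and the phosphodiesterase gene Pde4a led this list by p (limma adjusted p = 0.41 and 0.42). Against normal mucosa the leading genes were Gnal, the olfactory G protein (0.75 ± 0.24), and Pde4a (0.50 ± 0.26, limma adjusted p = 1.0 each). Together 39 of 49 related genes were measured. In occluded against open mucosa 1 of these 39 lay at -1 or lower, as did 1.2% of all probes, and the median of the 39 was 0.0031. Of them 0 passed in limma, against 0.221% of all probes, and 8 had an unadjusted p under 0.05, against 6.19%. In occluded against normal mucosa 0 passed and 1 had an unadjusted p under 0.05, against 0.00668% and 2.88% of all probes.

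Between open and normal mucosa the 39 related genes had a median of -0.04. Of them 0 passed in limma and 0 had an unadjusted p under 0.05, against 0% and 1.59% of all probes. Ranked by p within each list, the leading genes were Atp2b1 (0.30 ± 0.27) and Atp2b2 (0.66 ± 0.60) among calcium pumps, and Fxyd1 (-0.20 ± 0.16) and Fxyd2 (-0.28 ± 0.27) in the sodium pump. In the remaining lists they were Cabp4 (-0.32 ± 0.24), Cngb1 (0.22 ± 0.23), Ric8b (-0.49 ± 0.30) and Gnal (0.29 ± 0.24).

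**Figure D4:**
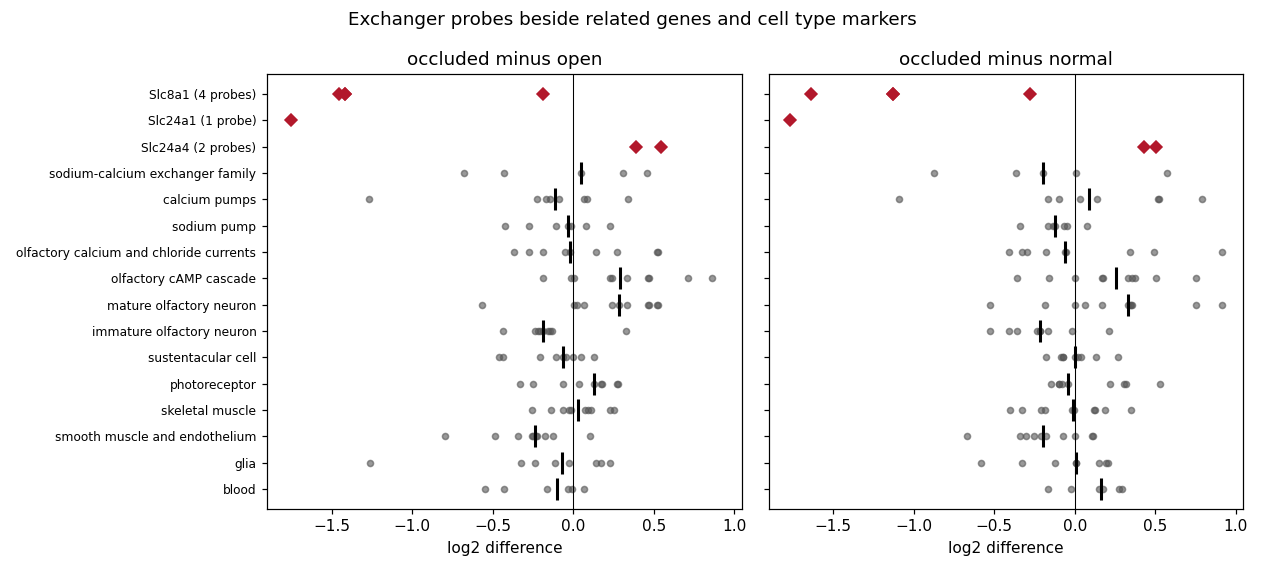
Log2 differences of occluded minus open and occluded minus normal mucosa for the exchanger probes (diamonds) and for the measured genes of each list (dots, with the list median as a bar). Slc24a1 lies below each dot in both panels, as do 3 Slc8a1 probes, and the list medians lie between -0.24 and 0.33.

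Levels of several marker lists also differed between the sides, without a gene that passed the test, and their part in the exchanger values was not tested. In bulk tissue, fewer cells of a type and less RNA per cell cannot be told apart. Of 11 measured markers of mature olfactory neurons, 10 lay higher in occluded than in open mucosa, with a median of 0.29; this list shares genes with the lists of currents and cascade. Their summed normalised intensity was 284177 to 303550 in occluded, 241961 to 243095 in open and 249259 to 252363 in normal replicates. Bright probes weigh most in such a sum. By the mean log2 level of the markers, in which each weighs alike, the sides overlapped. It was 13.75 to 14.10 in occluded and 13.57 to 13.85 in open replicates. Omp, which was saturated on nearly all arrays, is in this list and in that of the cascade. Of 9 markers of immature olfactory neurons 8 lay lower, with a median of -0.19, and their summed intensity was 44090 to 55477 in occluded, 56906 to 58651 in open and 53440 to 65660 in normal replicates. Their mean log2 level overlapped between the sides, at 11.39 to 11.86 in occluded and 11.66 to 11.93 in open replicates.

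Slc8a1 is also a gene of smooth muscle, and of 10 markers of smooth muscle and endothelium 9 lay lower in occluded than in open mucosa, with a median of -0.24. Their summed intensity was 40839 to 53593 in occluded, 51325 to 68445 in open and 44514 to 54365 in normal replicates. By mean log2 level the sides did not overlap, at 9.63 to 9.81 in occluded and 9.84 to 10.05 in open replicates. Normal replicates lay at 9.66 to 10.06. The largest difference of these 10 markers was that of Myh11, the smooth muscle myosin (-0.80 ± 0.17, limma adjusted p = 0.20). A part of smooth muscle cells in the Slc8a1 values was not tested. Skeletal muscle markers were split, 5 of 10 on each side of 0, with summed intensity of 1330 to 1389 in occluded, 1109 to 1655 in open and 1347 to 1558 in normal replicates. Slc24a1 is a gene of photoreceptors, and of 9 measured photoreceptor markers 6 lay higher in occluded mucosa, with a median of 0.13. Their summed intensity was 2626 to 3484 in occluded, 2566 to 3053 in open and 2367 to 3132 in normal replicates. Gngt1 and Prph2 were below noise on 21 and 15 of 27 arrays.

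Sums of the remaining lists also overlapped between the sides, as did those of smooth muscle and endothelium, skeletal muscle and photoreceptors. By mean log2 level the markers of smooth muscle and endothelium did not overlap, while the other marker lists did. Sustentacular cell markers summed to 154112 to 180433 in occluded, 158902 to 177319 in open and 155599 to 164279 in normal replicates, and 7 of 9 lay lower in occluded than in open mucosa. Glia markers summed to 7454 to 8583 in occluded, 7110 to 8707 in open and 6999 to 8905 in normal replicates (5 of 8 lower). The differences of single glia markers between the sides ran from -1.26 to 0.23. An unadjusted limma p under 0.05 was found for 1 of these 8, against 6.19% of all probes. Blood markers summed to 19157 to 31997 in occluded, 23736 to 37012 in open and 14067 to 36204 in normal replicates (5 of 6 lower). No gene of any marker list passed in limma, where at most 0.221% of all probes did in a comparison.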

How the data were processed

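Total RNA of the mucosa was amplified by in vitro transcription and coupled to Cy5, 1 sample per array, per the labels' protocols. The deposited values are linear probe intensity values, read as background-subtracted because 1.45% to 3.93% of an array's values lie at or below 0; the sources used here name neither a scanner nor a normalization. The spread of array medians was 1.15 in log2 units. A floor of 0.912, the smallest value above 0, was applied before log2. Arrays were quantile normalised and 3 arrays averaged per replicate.

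limma 3.58.1 (R 4.3.3, statmod 1.5.0) fitted the 3 groups over 29922 probes, taking individuals as random blocks (consensus correlation 0.389), two-sided, with Benjamini-Hochberg adjustment. The fit was tested on simulated data. Equal title numbers were read as 1 individual. Their deviations from group means correlated at 0.52, -0.004 and 0.14 between the sides, so the values do not settle the pairing. With the normal replicate of equal number, from other mice, number 1 correlated at 0.35 (occluded) and 0.39 (open). For numbers 2 and 3 these values lay between 0.002 and 0.10. Replicates of a group correlated at 0.96 to 0.98, and no 2 were counted as 1.

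The platform annotation names 21020 probes by 1 symbol and leaves 8902 unnamed here. Symbols were updated through RefSeq, and the brightest probe stood for a listed gene. Promoters were matched by symbol, 3 of 3. All member probes and all measured exchangers were named, and from each further list of related genes those that passed or the 2 with the smallest p. The 3 probes most like each exchanger were named by Pearson correlation. Myh11, Gngt1, Prph2 and Omp were named after their values were seen. The members, lists and rules were chosen with earlier results of these data known. Figures were drawn with matplotlib 3.10.9 in Python 3.11.15.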

Additional observations from a re-analysis of the deposited data

How the results depend on the processing

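The count of probes past the threshold in occluded against open mucosa, 66, was 3 with no replicate block, 2 with a fixed replicate block over all 9 values and 0 with it on the 6 values of both sides. It was 14 with these groups alone, 0 without normalization, 37 with median centring and 102 with a robust prior with trend. It ranged from 0 to 123 with replicates left out, with 0 without replicate 1 of either or both sides, 123 without occluded replicate 2 and 112 without open replicate 2. In occluded against normal mucosa the count of 2 was 0 with the fixed replicate block, with these groups alone, without normalization and with a floor at 16. It was 5 with the median of arrays, 24 with an offset of 50 before log2, 13 with the dimmest 30% left out and 26 with the robust prior, and ranged from 0 to 1 with replicates left out. Where limma gave no call, 708 to 1705 probes had an unadjusted p under 0.05 in occluded against open mucosa, 449 to 1338 in occluded against normal mucosa and 139 to 992 in open against normal mucosa, which had no call under any of 19 alternatives. The causes were not tested. The Slc24a1 difference of occluded from open was -1.40 with the offset, which by construction shrinks dim probes, and that from normal, -1.77, passed with the robust prior (limma adjusted p = 0.035). In the comparisons with normal mucosa, fitting without the replicate block, or with it fixed, changed no call of an exchanger probe. For occluded against open mucosa no calls of exchanger probes are given. The occluded differences from open lay between -1.49 and -1.31 for Slc8a1 mMC018264 (-1.12 for the mean of all 4 Slc8a1 probes), -1.76 and -1.09 for mMC019281, -1.71 and -1.15 for mMR029153, -1.94 and -1.40 for Slc24a1 and 0.46 and 0.66 for Slc24a4 mMC008197. Those of mMC006246 lay between -0.40 and 0.05, and those of Slc24a4 mMR029124 between 0.11 without open replicate 1 and 0.71 without occluded replicate 1. No related gene passed under any alternative.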
